A study of Mus musculus with 3 samples.

Results

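The genes of the nuclear lamina and of senescence-associated chromatin were followed in melan-a NRAS61K cells over 28 days of doxycycline. The set was 10 named genes: Lmna, Lmnb1, Lmnb2, Lbr, Hmga1, Hmga2, Hmgb1, Hmgb2, Ezh2 and Cbx5. A gene was taken through every probe set of the array that the platform annotation assigns to it alone. That gave 23 of 45101 probe sets, for 8 of 18194 genes. Hmgb1 was represented by 5 probe sets, all shared with the annotated pseudogene Gm21596, so its values are given apart. Hmga1 was not listed for any probe set and has no value here.

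Melan-a NRAS61K cells are immortalized mouse melanocytes that carry the NRAS61K oncogene. All 3 arrays came from cells given doxycycline at 1 µg/ml, for 6, 14 or 28 days, so doxycycline was common to all of them and no untreated array was used here. Total RNA was measured on Affymetrix arrays, with 1 array for each time. By its title the series is about tumorigenic cells arising out of senescence induced by this oncogene, and the time course bears on how the lamina and chromatin genes stood as treatment went on. The labels do not say how many clones make up the line.

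The lamina is a meshwork of A-type and B-type lamins under the inner nuclear membrane, to which heterochromatin is tethered. In cells that enter senescence, lamin B1 is known to be lost, HMGB proteins to be depleted from the nucleus, and HMGA proteins and HP1 to gather in condensed chromatin foci. Ezh2, the main methyltransferase of polycomb repressive complex 2 (PRC2) in dividing cells, is known to hold the Cdkn2a locus silent and to decline as cells stop dividing.

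The first promoter window is shown for 7 of the 8 genes with values. Letters of genes lowest at day 28 (Hmgb2, Ezh2, Lmnb2, Cbx5, Lbr) can be read beside those of genes lowest at day 14 (Lmna, Hmga2). This grouping is by the brightest probe set, and Ezh2 differed by only -0.01 for day 28 minus day 14. No window of Lmnb1 is among those shown. Each window runs from 250 bases before to 50 bases after a RefSeq gene start, 5′ to 3′ on the gene's strand, in build GRCm38.p6. Capitals mark matches, on either strand, to 4 E2F-like words (TTCCCGC as the first, TTCGCGC as the next, then TTGCCGC, and last TTGGCGC), to CCAAT, and to TTTGAA, a word of the cell cycle homology region. The word matches did not overlap in the windows shown.

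Hmgb2, chr8:57511593-57511892, plus strand: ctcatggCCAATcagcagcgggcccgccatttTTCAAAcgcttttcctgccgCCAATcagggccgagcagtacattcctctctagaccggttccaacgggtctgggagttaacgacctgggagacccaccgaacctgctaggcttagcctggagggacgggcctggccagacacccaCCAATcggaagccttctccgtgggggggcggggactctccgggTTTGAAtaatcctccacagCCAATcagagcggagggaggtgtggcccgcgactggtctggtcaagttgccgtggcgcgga

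Ezh2, chr6:47594981-47595280, minus strand: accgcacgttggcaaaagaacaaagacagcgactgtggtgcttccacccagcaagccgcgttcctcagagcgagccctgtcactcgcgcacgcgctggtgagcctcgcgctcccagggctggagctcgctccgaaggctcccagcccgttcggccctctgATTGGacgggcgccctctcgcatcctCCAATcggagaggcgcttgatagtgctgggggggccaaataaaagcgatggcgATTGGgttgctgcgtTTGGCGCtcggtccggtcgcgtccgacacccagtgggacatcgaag

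Lmnb2, chr10:80918196-80918495, minus strand: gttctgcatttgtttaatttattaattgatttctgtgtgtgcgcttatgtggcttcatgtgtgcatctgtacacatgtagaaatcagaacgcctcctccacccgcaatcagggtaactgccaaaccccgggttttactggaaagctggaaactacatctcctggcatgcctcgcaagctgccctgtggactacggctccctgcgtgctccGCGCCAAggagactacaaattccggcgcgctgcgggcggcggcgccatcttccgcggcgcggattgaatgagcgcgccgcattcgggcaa

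Cbx5, chr15:103239803-103240102, minus strand: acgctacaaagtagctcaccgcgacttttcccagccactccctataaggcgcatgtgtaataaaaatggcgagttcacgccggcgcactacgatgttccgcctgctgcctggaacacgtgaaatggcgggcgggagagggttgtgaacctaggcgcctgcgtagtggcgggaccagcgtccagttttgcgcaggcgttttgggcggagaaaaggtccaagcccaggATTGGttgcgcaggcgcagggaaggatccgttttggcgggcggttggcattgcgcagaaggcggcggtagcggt

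Lbr, chr1:181842352-181842651, minus strand: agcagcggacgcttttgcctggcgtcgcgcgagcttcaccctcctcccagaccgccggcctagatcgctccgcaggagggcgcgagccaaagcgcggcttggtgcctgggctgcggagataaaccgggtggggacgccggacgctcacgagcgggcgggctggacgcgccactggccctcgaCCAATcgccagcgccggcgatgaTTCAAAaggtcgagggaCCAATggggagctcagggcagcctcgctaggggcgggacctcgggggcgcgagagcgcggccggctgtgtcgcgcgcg

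Lmna, chr3:88503303-88503602, minus strand: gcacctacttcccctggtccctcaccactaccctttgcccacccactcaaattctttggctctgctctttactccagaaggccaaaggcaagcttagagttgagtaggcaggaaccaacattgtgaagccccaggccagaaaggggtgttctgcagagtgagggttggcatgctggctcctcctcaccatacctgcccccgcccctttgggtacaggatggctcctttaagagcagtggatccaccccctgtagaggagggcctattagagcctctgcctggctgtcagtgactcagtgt

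Hmga2, chr10:120476420-120476719, minus strand: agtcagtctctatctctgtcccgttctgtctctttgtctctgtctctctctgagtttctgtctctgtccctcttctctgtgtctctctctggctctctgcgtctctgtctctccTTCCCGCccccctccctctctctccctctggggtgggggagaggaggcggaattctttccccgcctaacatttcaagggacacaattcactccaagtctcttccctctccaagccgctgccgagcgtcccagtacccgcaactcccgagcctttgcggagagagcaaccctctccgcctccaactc

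Of all 32851 RefSeq windows of this length, 9.57% held an E2F-like word, 37.4% held CCAAT and 17.9% held TTTGAA. Among the 10 windows of these 7 genes, 3 held an E2F-like word, 5 held CCAAT and 2 held TTTGAA. Hmgb2 had 4 CCAAT words, the last starting at position -11 counted from 0 at the gene start, and 2 TTTGAA words, at positions -218 and -30. Ezh2 had 3 CCAAT words, at positions -90, -64 and -11, and 1 E2F-like word at position 4. Lmnb2 had 1 E2F-like word at position -40, on the reverse strand, and Hmga2 had 1 at position -136. Lbr had 2 CCAAT words and 1 TTTGAA word, and the first Cbx5 window had 1 CCAAT word. The first Lmna window held none of the words, and the second held 1 CCAAT. A match is a string of letters and no evidence that a factor binds there, and a window without one says nothing of the factor.

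Values are the deposited log2 values, on which a difference of 1 was read as 2-fold. A gene was described by its probe set with the highest mean, and for the set's genes the other probe sets are given beside it. Background was set at the 90th percentile over 96 probe sets whose genes should be silent in these cells. It was 23.15 on day 6, 22.72 on day 14 and 22.91 on day 28. With 1 array for each time there is no spread between cultures, and no test of a difference between times could be made. The only error at hand was how far probe sets of 1 gene disagreed, as the SD of their differences, at 0.31 (day 28 minus day 6), 0.29 (day 14 minus day 6) and 0.24 (day 28 minus day 14). In RNA from whole cultures, fewer cells that express a gene and less RNA per cell cannot be told apart.

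**Figure D1:**
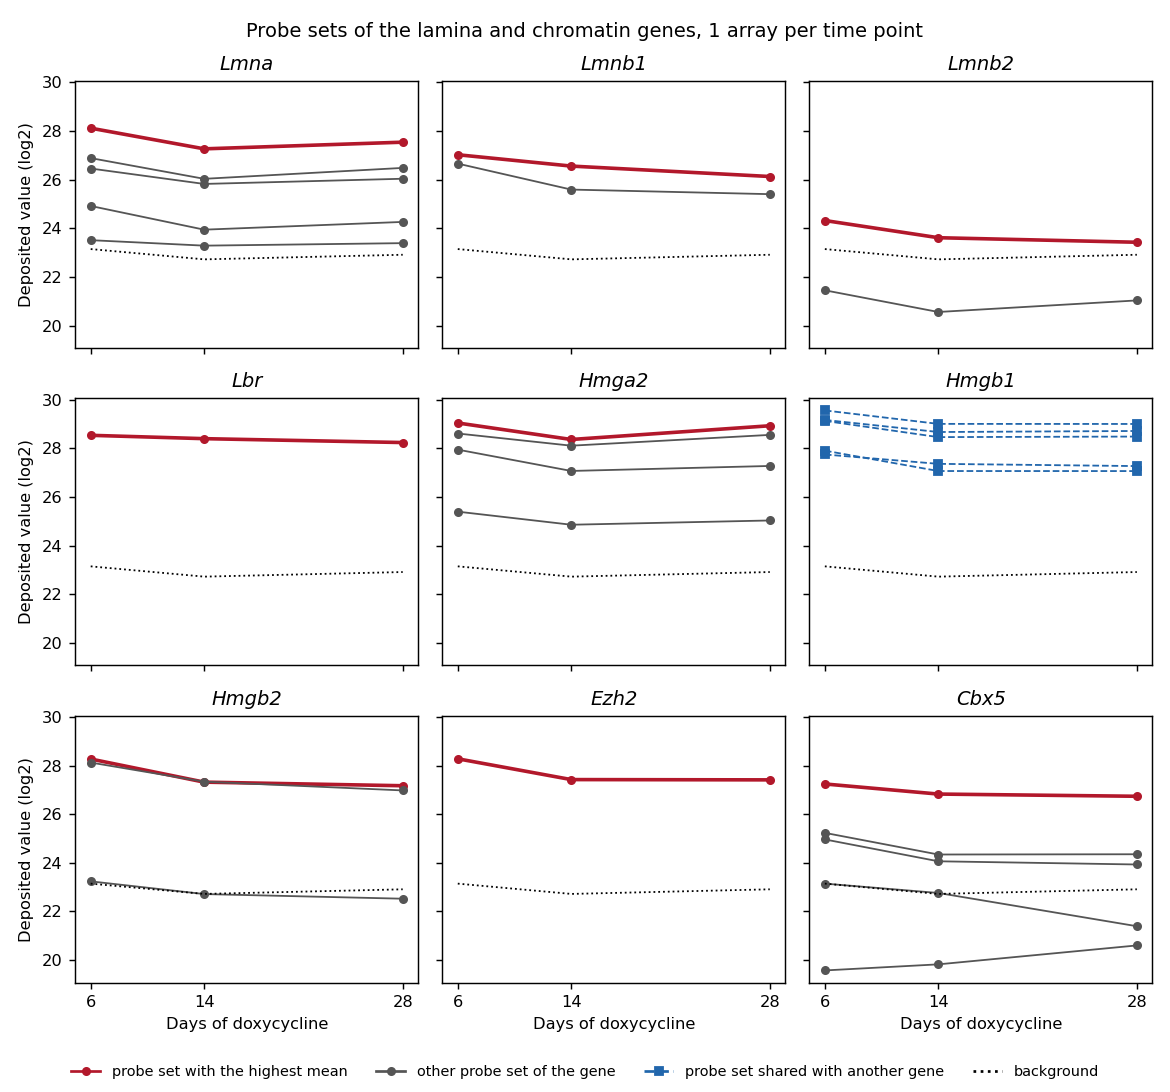
Deposited log2 value (vertical axis) at days 6, 14 and 28 (horizontal axis), with 1 panel for each gene and 1 line for each probe set. Red is the probe set with the highest mean, grey the others, blue dashes the probe sets of Hmgb1 that are shared with Gm21596, and the dotted line the background of each array. Lmna and Hmga2 turn upward after day 14, whereas Lmnb1 goes on downward, with 27.03, 26.56 and 26.13.

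Of the lamins, both B-type genes were lower at day 28 than at day 6. Lmnb1 encodes lamin B1, whose loss is a widely used mark of senescence. Its brighter probe set read 27.03 on day 6, 26.56 on day 14 and 26.13 on day 28. The other read 26.66, 25.59 and 25.40 at the same times. Both were lowest at day 28, but they divided the change between the steps in different ways. The first was 1.86-fold lower at day 28 than at day 6, with a log2 difference of -0.90, which was spread over both steps, at -0.47 for day 14 minus day 6 and -0.43 for day 28 minus day 14. The second differed by -1.26 for day 28 minus day 6, of which -1.07 lay between days 6 and 14. The 2 probe sets thus differed from each other by 0.60 for day 14 minus day 6, more than the SD between probe sets, so the timing for Lmnb1 is uncertain.

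Lmnb2 encodes lamin B2, the other somatic B-type lamin. It read 24.32 on day 6, 23.61 on day 14 and 23.43 on day 28. It was 1.86-fold lower at day 28 than at day 6 and 1.63-fold lower at day 14 than at day 6, with a further log2 difference of -0.19 from day 14 to day 28. The level at day 28 stood 0.51 above that array's background, the closest of the 8 genes' brightest probe sets. Its second probe set lay below the background on every array, at 21.45, 20.56 and 21.03, and was not compared.

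Lmna encodes lamins A and C, the A-type lamins. Its 5 probe sets were all above the background on every array, and each was lowest at day 14. The brightest read 28.12 on day 6, 27.27 on day 14 and 27.54 on day 28. It was 1.80-fold lower at day 14 than at day 6, 1.49-fold lower at day 28 than at day 6, and 1.21-fold higher at day 28 than at day 14. Over the 5 probe sets the log2 difference ran from -0.98 to -0.23 for day 14 minus day 6, from -0.66 to -0.12 for day 28 minus day 6 and from 0.10 to 0.45 for day 28 minus day 14. The dimmest of them, at 23.51, 23.29 and 23.39, showed the smallest differences. Lmnb1 minus Lmna was 0.38 in the log2 difference of day 14 minus day 6 and -0.70 in that of day 28 minus day 14, by the brightest probe set of each. That contrast for day 14 minus day 6 depended on the probe set, since the second Lmnb1 probe set, at -1.07, was lower than that of Lmna, at -0.85.

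Lbr encodes the lamin B receptor, an inner membrane protein that binds B-type lamins and HP1 and is also a sterol reductase. Its single probe set read 28.54 on day 6, 28.40 on day 14 and 28.24 on day 28. The log2 difference was -0.30 for day 28 minus day 6, about the size of the SD between probe sets of a gene. It was -0.14 for day 14 minus day 6, which became 0.02 when arrays were scaled to an equal mean of 11 housekeeping genes, called equal reference genes here.

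Hmgb2 encodes an HMG box protein that bends DNA and is abundant in dividing cells. By the brightest probe sets it had the largest difference of the 8 genes between day 28 and day 6. Its brightest probe set read 28.27 on day 6, 27.32 on day 14 and 27.17 on day 28. A nearly as bright probe set read 28.13, 27.34 and 26.98 at the same times. Both were more than 2-fold lower at day 28 than at day 6, with log2 differences of -1.10 and -1.15, although under equal reference genes the first became -0.92 and neither reached 2-fold. Most of the difference was in place by day 14, at -0.95 and -0.79. A dimmer probe set, above the background at day 6 alone, read 23.24, 22.72 and 22.53. Of 11262 genes described for day 28 minus day 6, 3.15% had a lower difference than Hmgb2.

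Hmgb1 encodes the closely related HMG box protein that senescent cells are known to release. Its 5 probe sets cannot separate it from Gm21596, and 1 of them also matches 4932431P20Rik. The brightest read 29.56 on day 6, 29.01 on day 14 and 29.00 on day 28, and the dimmest by mean read 27.91, 27.07 and 27.07. All 5 were lower at days 14 and 28 than at day 6, by log2 differences of -0.84 to -0.45 for day 28 minus day 6 and of -0.84 to -0.39 for day 14 minus day 6. Between days 14 and 28 they stayed within -0.09 and 0.04.

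Hmga2 encodes an AT-hook protein that binds the minor groove of AT-rich DNA and, in human fibroblasts, is a component of senescence-associated heterochromatin foci. It was among the brightest of the set, with 29.04 on day 6, 28.36 on day 14 and 28.93 on day 28. Day 14 was the lowest for each of its 4 probe sets. The brightest was 1.60-fold lower at day 14 than at day 6 and 1.48-fold higher at day 28 than at day 14. For day 28 minus day 6 its log2 difference was -0.11, which became 0.07 when arrays were scaled to equal reference genes. Another probe set, at 27.95, 27.07 and 27.28, stayed lower at day 28 than at day 6 by a log2 difference of -0.67, so the extent of the return differed between probe sets. Over the 4, the log2 difference ran from -0.88 to -0.50 for day 14 minus day 6, from -0.67 to -0.06 for day 28 minus day 6 and from 0.18 to 0.56 for day 28 minus day 14. Hmgb2 minus Hmga2 was -0.98 in the log2 difference of day 28 minus day 6, by the brightest probe set of each.

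Ezh2 read 28.28 on day 6, 27.43 on day 14 and 27.41 on day 28 on its single probe set. It was 1.82-fold lower at day 28 than at day 6 and 1.81-fold lower at day 14 than at day 6. The levels at days 28 and 14 differed by -0.01 on the log2 scale, and by 0.01 with equal reference genes.

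Cbx5 encodes HP1 alpha, which binds methylated H3K9 in heterochromatin. Its brightest probe set read 27.25 on day 6, 26.83 on day 14 and 26.74 on day 28. It was 1.42-fold lower at day 28 than at day 6, the third smallest difference of the 8 genes. Of the other probe sets above the background on every array, 1 read 24.96, 24.07 and 23.93 and the other 25.23, 24.34 and 24.35. They gave larger log2 differences for day 28 minus day 6, at -1.03 and -0.88. A probe set at 23.15, 22.76 and 21.39 crossed the background, and another, at 19.58, 19.83 and 20.60, lay below it throughout. The 3 brighter probe sets all placed most of the difference before day 14.

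**Figure D2:**
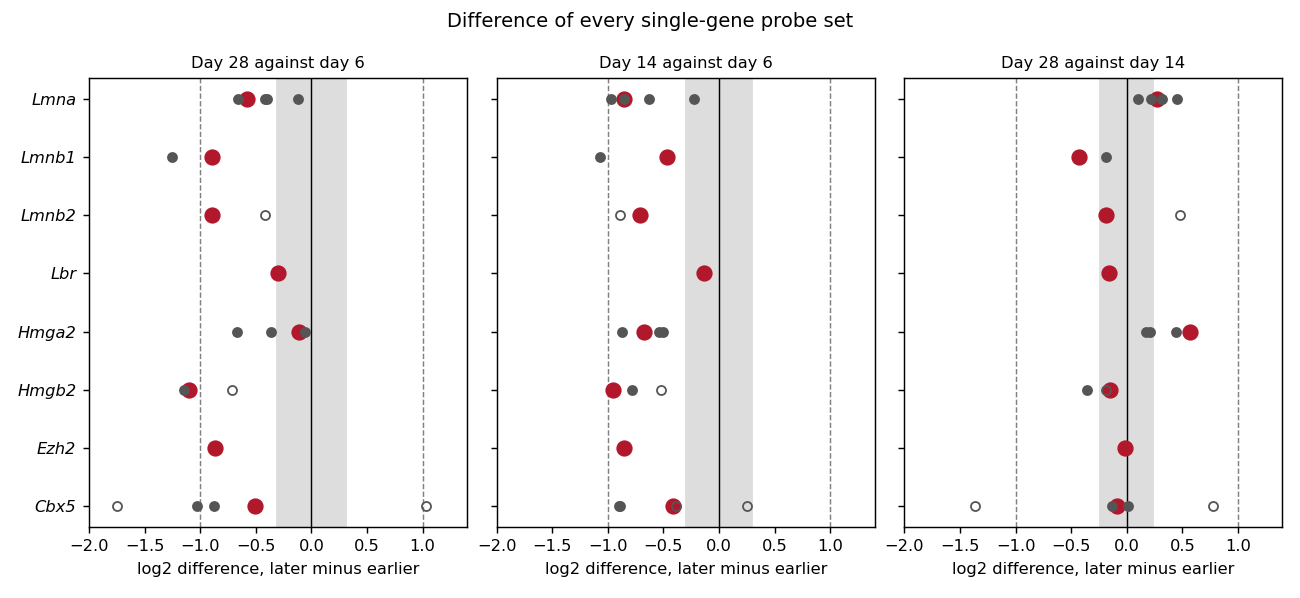
Log2 difference for each probe set of the 8 genes, in 1 panel for each comparison of times. Large red points are the brightest probe set of a gene, small points the others, open circles those not above the background on all arrays, the grey band the SD between probe sets of a gene and the dashed lines 2-fold. For day 28 minus day 6 and day 14 minus day 6 the 21 described points lie left of 0 (18 and 20 under equal reference genes). For day 28 minus day 14 they lie on both sides of it. Open circles of Hmgb2 and Cbx5 that were described through day 6 alone could only lie left of 0.

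All 8 genes were lower on day 28 than on day 6, except that Hmga2 stood at 0.07 under equal reference genes. Of all 11262 genes described for this pair of days, 48.2% were lower. The median log2 difference of the 8 was -0.72, against 0.02 over all genes. Hmgb2 alone was at least 2-fold lower, as were 3.94% of all genes. None was 2-fold higher, as 6.70% of all genes were. At 1.5-fold, 4 were lower, namely Hmgb2, Lmnb1, Lmnb2 and Ezh2, as were 12.0% of all genes. By probe set, 21 of 21 described were lower, or 18 under equal reference genes. A dim probe set of Hmgb2 and another of Cbx5 were described through day 6 alone, so they could only be lower. Of all probe sets described, 51.4% were lower.

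All 8 were also lower on day 14 than on day 6, except that Lbr stood at 0.02 under equal reference genes. Of all 11388 genes described, 51.9% were lower. The median log2 difference was -0.69, against -0.02 over all genes. None was 2-fold lower or 2-fold higher, as 3.78% and 5.55% of all genes were. At 1.5-fold, 5 were lower, namely Hmgb2, Ezh2, Lmna, Lmnb2 and Hmga2, as were 13.9% of all genes. Under equal reference genes the count was 3, since Lmnb2 and Hmga2 missed 1.5-fold at -0.55 and -0.52. By probe set, 21 of 21 described were lower, or 20 under equal reference genes. The dim Hmgb2 probe set was described through day 6 alone here too, so it could only be lower. Of all probe sets described, 51.7% were lower. The comparisons of days 28 and 14 with day 6 share its array, so they do not bear each other out.

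For day 28 minus day 14, 6 genes were lower and 2, Lmna and Hmga2, were higher, and Ezh2 was also above 0 under equal reference genes. Of all 11520 genes described, 45.3% were lower. The median log2 difference was -0.12, against 0.03 over all genes. None was 2-fold lower or 2-fold higher, as 1.46% and 2.18% of all genes were. None was 1.5-fold lower, as 4.39% of all genes were. By probe set, 10 of 20 were lower and 10 higher, or 9 and 11 under equal reference genes. Among the lower ones, a dim Cbx5 probe set was described through day 14 alone. Of all probe sets described, 49.4% were lower. By the brightest probe sets Lmnb1 had the lowest difference of the 8, and 7.93% of genes had a lower difference. Hmga2 stood at the other end, and 91.9% of genes had a lower difference.

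Among the 9068 genes whose mean level lay in the range of the 8, from 23.79 to 28.78, the median log2 difference was 0.02 for day 28 minus day 6, and 48.7% were lower.

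Genes above the background numbered 10507 on day 6, 11251 on day 14 and 11075 on day 28. The slope of the hybridization controls ran from 0.77 to 0.80, and the 3′ minus 5′ log2 difference of Actb was 0.58, 0.76 and 0.75. Markers of melanocytes differed at the same times as the set, and values that follow are for days 6, 14 and 28 in that order. Of 10, 5 exceeded the background on day 6, 8 on day 14 and 7 on day 28, with a mean over the list of 23.87, 25.94 and 25.14, and Tyr and Kit did so on no array. Of the 7 described for day 28 minus day 6, 4 were 2-fold higher, with a median log2 difference of 2.13. Another 2 were below 0, namely Tyrp1 at -0.11 and Pmel at -0.02. With equal reference genes 5 were 2-fold higher and none was below 0. Dct read 23.83, 29.17 and 28.03, Mlana read 24.25, 29.08 and 28.38, and Mitf read 23.67, 26.10 and 25.80. Tyrp1 was highest at day 14, with 27.58, 29.67 and 27.47. Slc45a2, below the background at day 6, had a value at day 28 at least 6.17-fold above that background. Sox10 differed by 0.87 for day 28 minus day 6.

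Some markers of other cell types differed as well. Fibroblast markers above the background numbered 5, 5 and 6 of 9, with means of 23.28, 24.03 and 23.71. Ogn read 24.29, 27.47 and 25.59, Pdgfra read 23.88, 24.26 and 25.50, and Col3a1 read 25.25, 26.31 and 25.17, while Dcn passed the background at day 28 alone and Col1a2, Lum and Thy1 on no array. Col1a1 went the other way, with 23.97, 23.39 and 23.60. Of the 6 described for day 28 minus day 6, 3 were 2-fold higher and 2 were below 0, or 1 below 0 with equal reference genes. The 3 were Ogn, Pdgfra and Dcn. For Dcn the size is uncertain, since its day 28 value of 23.05 lay below the day 6 background of 23.15. Of 8 macrophage markers, 5 were above the background at each time, with means of 23.08, 23.14 and 23.55. Lyz2 read 24.57, 27.17 and 27.31, and Cd68 read 25.09, 23.98 and 25.99, while Ptprc, Itgam and Cd14 were not above the background on any array. Of the 5 described for day 28 minus day 6, 1 was 2-fold higher. Another 2 were below 0, namely Csf1r at -0.31 and Adgre1 at -0.13. With equal reference genes 2 were 2-fold higher and 1 was below 0. Keratinocyte markers numbered 2 of 9 at each time, with means of 22.17, 22.16 and 22.13. Endothelial markers numbered 1 of 7, with means of 21.57, 21.83 and 22.28, and the one above the background was Cdh5, at 23.70, 25.85 and 27.93. The part of melanocyte state or of other cell types in the values of the set was not tested.

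**Figure D3:**
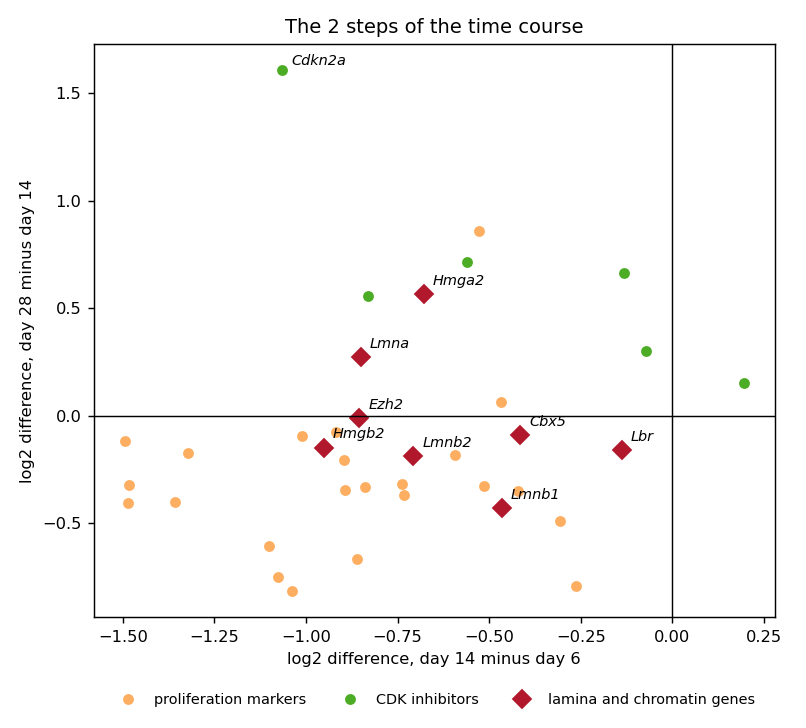
Log2 difference of day 14 minus day 6 (horizontal axis) and of day 28 minus day 14 (vertical axis) for the 8 genes, the proliferation markers and the CDK inhibitors, 1 point for each gene. Hmga2 and Lmna lie above the horizontal zero line at 0.56 and 0.27, and Lmnb1 lies lowest of the 8 genes at -0.43.

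The genes whose course was nearest to the 3 largest of these differences were found by Euclidean distance over the 2 step differences (day 14 minus day 6, day 28 minus day 14), among 10257 genes above the background on all 3 arrays. Nearest to Hmgb2 were Dnph1 and D10Wsu102e, at distances of 0.0211 and 0.0218. Nearest to Lmnb1 were Slf1 and Alkbh1, at 0.0336 and 0.0407. Nearest to Lmnb2 were Obi1 and Ten1, at 0.00358 and 0.00929. With only 2 steps many genes lie close: 144 were within 0.2 of Hmgb2, 113 of Lmnb1 and 270 of Lmnb2.

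Of 23 described genes for nuclear envelope proteins and lamin partners, nuclear pore genes included, none reached 2-fold above its day 6 level at day 28. None was 2-fold lower either, or 1 with equal hybridization controls. The median log2 difference was -0.18, which became 0.01 with equal reference genes. By the brightest probe sets, the largest differences were those of Tmpo, which encodes the lamina-associated polypeptide LAP2, at -0.93, Aaas, a nuclear pore gene, at -0.90, and Banf1, whose product bridges DNA and LEM domain proteins, at -0.84. This order depended on the probe set. Another bright Tmpo probe set, at 27.95, 27.72 and 27.65, differed by -0.30. The pore gene Ndc1, named after its values were seen, differed by -0.65 on its brightest probe set and by -1.44 on one that read 26.57, 25.64 and 25.13. Syne3, a nesprin gene, was lowest at day 14, with 25.16 on day 6, 23.99 on day 14 and 24.77 on day 28. The 5 lamin processing enzymes had a median log2 difference of -0.02 for day 28 minus day 6, or 0.16 with equal reference genes, with Icmt at 0.24, Fntb at -0.19 and Fnta at 0.13.

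Among 10 other HMG box and HMGN genes, 2 were 2-fold lower at day 28 than at day 6 and none was higher, with a median log2 difference of -0.32, or -0.13 with equal reference genes. Hmgb3, a close relative of Hmgb1 and Hmgb2, read 27.52 on day 6, 26.30 on day 14 and 26.15 on day 28, a log2 difference of -1.37 for day 28 minus day 6. Hmgn5, which encodes a nucleosome-binding protein, read 26.19, 25.28 and 25.09, a difference of -1.10. Tfam, the mitochondrial member of the family, differed by -0.53 on its brighter probe set. Its other probe set, at 24.26, 23.59 and 24.21, differed by -0.05. With equal reference genes 1 gene of the list was 2-fold lower.

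Of 10 PRC2 genes other than Ezh2, 3 were 2-fold higher at day 28 than at day 6 and none was 2-fold lower, while 5 had a difference below 0, or 3 with equal reference genes. The median log2 difference was 0.03, or 0.21 with equal reference genes and -0.05 with equal hybridization controls. The core subunits Eed and Suz12, named after their values were seen, differed by -0.50 and -0.47 on their brightest probe sets. The other 5 Suz12 probe sets differed by -0.99 to -0.56. Phf1, an accessory subunit that reads methylated histone H3, read 24.71 on day 6, 26.52 on day 14 and 26.38 on day 28. Jarid2, the accessory subunit that helps recruit the complex, read 24.66, 26.51 and 26.18. Both were already higher at day 14, by log2 differences of 1.82 and 1.85. Ezh1, the alternative methyltransferase found in non-dividing cells, read 24.97 on day 6, 25.58 on day 14 and 26.16 on day 28, with its other 3 probe sets below the background. Ezh2 minus Ezh1 was -2.06 in the log2 difference of day 28 minus day 6.

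Of 17 genes of polycomb repressive complex 1, 2 were 2-fold higher at day 28 than at day 6, or 1 with equal hybridization controls, and the median log2 difference was 0.16, or 0.34 with equal reference genes. Cbx7, which binds methylated H3K27, lay below the background at day 6 (23.02) and above it at days 14 and 28 (24.50 and 24.55). Measured against the day 6 background it was at least 2.64-fold higher at day 28 and at least 2.56-fold higher at day 14. Phc3 read 25.71, 26.86 and 26.74 at the same 3 times. Pcgf5 differed by -0.77 for day 28 minus day 6 on its brightest probe set, whereas its 2 other probe sets differed by 0.44 and 0.51. The H3K27 demethylase genes Kdm6a and Kdm6b differed by 0.36 and 0.19.

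Of the 11 described genes for HP1 and H3K9 methylation other than Cbx5, 1 was 2-fold lower at day 28 than at day 6, and the median log2 difference was -0.01, or 0.17 with equal reference genes. That gene was Uhrf1, which couples histone marks to maintenance of DNA methylation, with 27.79 on day 6, 27.02 on day 14 and 26.56 on day 28. Its partner Dnmt1, the maintenance DNA methyltransferase, differed by -0.96. Cbx3, which encodes HP1 gamma, was above the background at day 14 alone, so it was not compared between days 28 and 6. Of 16 histone chaperone and variant genes tied to senescence foci, 2 were 2-fold lower at day 28 than at day 6, and the median log2 difference was -0.24. With equal reference genes the median was -0.06, and 8 of the 16 were below 0 in place of 15. The genes 2-fold lower were the chaperones Asf1b, at 26.49, 25.37 and 24.93, and Chaf1b, at 26.60, 25.78 and 25.24. A second Chaf1b probe set, above the background on 2 arrays, differed by 0.05. Hira, whose product deposits histone H3.3, differed by -0.60 on its brightest probe set. Another Hira probe set, below the background at day 28, read 23.75, 22.88 and 22.43.

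**Figure D4:**
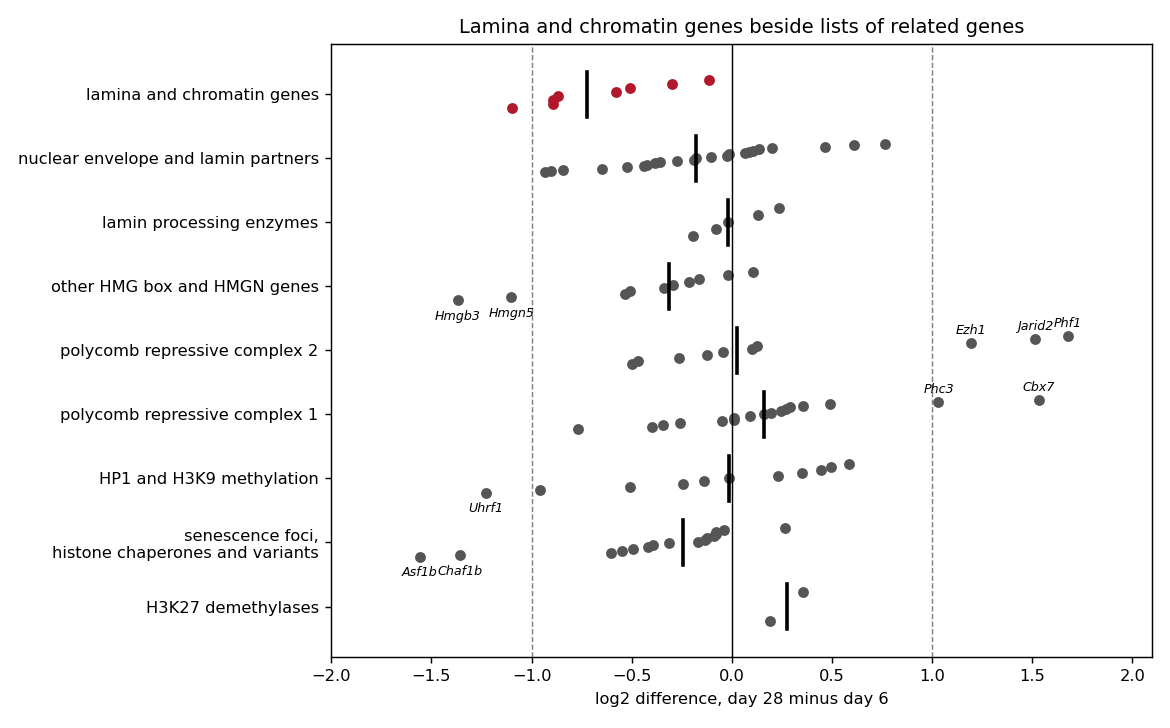
Log2 difference of day 28 minus day 6 for each described gene of the set and of the related lists, 1 point for each gene. Black bars are medians and dashed lines 2-fold. The set lies below 0, apart from Hmga2 under equal reference genes, with a median of -0.72. The related lists have medians between -0.32 and 0.27.

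Proliferation markers were lower at the same times as the set. Of 23, 16 were 2-fold lower at day 28 than at day 6 and none was higher, with a median log2 difference of -1.10. For day 14 minus day 6, 9 were 2-fold lower, with a median of -0.89. With equal reference genes these counts were 10 for day 28 minus day 6 and 5 for day 14 minus day 6. For day 28 minus day 14 none was 2-fold lower, with a median of -0.33. Mki67 read 29.17 on day 6, 28.87 on day 14 and 28.37 on day 28. Top2a read 28.62, 28.10 and 27.78, and Mcm5 of the replicative helicase read 27.88, 26.85 and 26.03. Mybl2 and Tk1 differed by -1.90 and -1.82 for day 28 minus day 6. The part of dividing cells in the values of Hmgb2 and Ezh2, which are known to be higher in dividing cells, was not tested.

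Of the 6 described CDK inhibitors, whose products restrain the cell cycle, none was 2-fold apart between day 28 and day 6, with a median log2 difference of 0.29, or 0.47 with equal reference genes. Cdkn2a, which encodes p16INK4a and p19ARF, read 25.32 on day 6, 24.25 on day 14 and 25.86 on day 28, so it was lowest at day 14 and differed by 1.61 for day 28 minus day 14. Cdkn1a read 26.15, 25.59 and 26.31, and Cdkn2b read 26.22, 26.09 and 26.76. A second Cdkn1a probe set, at 25.87, 25.22 and 25.68, was lower at day 28 than at day 6. Of the 6 inhibitors, 5 were below 0 for day 14 minus day 6, or 3 with equal reference genes, and none for day 28 minus day 14. Cdkn2a and Cdkn1a were among those lowest on day 14, as Lmna and Hmga2 were, whereas Hmgb2 was lowest on day 28.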

How the data were processed

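The authors deposited 1 value for each probe set and array, on a log2 scale as inferred from the values. The log base and the summarization are not given in the sources used here. Once sorted, the 3 deposited columns were identical, so a change common to most genes cannot be seen and each difference is relative to the other genes. The values ran from 1.46 to 30.6 on every array, and whether a constant had been added, which would cancel in differences, is not stated. Every fold assumes base 2. The number of arrays limits the precision.

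Gene names came from the platform annotation and were brought up to date by identifier with a GRCm38.p6 table: 34958 had 1 gene, 932 several and 9211 none. A gene was described in a comparison when its brightest probe set exceeded the background on 1 or both of the 2 arrays. A difference of at least 2-fold or 1.5-fold was counted, without a test, since each time had 1 array. Alternatives changed which probe set stands for a gene, the background, the scaling and the fold.

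The members and the gene lists were chosen with earlier results of these data known. All member probe sets are described. Of each list the text names up to 3 genes with the largest difference between days 28 and 6, any gene 2-fold apart, and Cdkn2a, Cdkn1a, Cdkn2b, Mki67, Top2a and Mcm5; of the proliferation and cell type markers only some are named. Promoter letters were taken from RefSeq windows of GRCm38.p6. Python 3.11.15, numpy 2.4.6, pandas 2.3.3 and matplotlib 3.10.9 were used, and the steps were tested on simulated data. The planted changes were larger than those of the members by their brightest probe sets, and lay only in genes well above the background. The simulation therefore does not cover smaller changes or dim genes such as Lmnb2.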

Additional observations from a re-analysis of the deposited data

How the results depend on the processing

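The count of genes at least 2-fold lower at day 28 than at day 6, which was 1, became 3 with the dimmest probe set above the background, 0 with equal reference genes, 4 with differences divided by the slope of the hybridization controls and 4 at 1.5-fold. For day 14 minus day 6 the count, which was 0, became 1 with the dimmest probe set, 1 with equal hybridization controls, 3 with the slope and 5 at 1.5-fold. The median log2 difference of the genes kept its sign under each alternative that gave one. It ran from -0.93 to -0.54 for day 28 minus day 6 and from -0.89 to -0.54 for day 14 minus day 6. For day 28 minus day 14 it ran from -0.16 to -0.09. The background settings left the median as it was, and the slope only divided it, so neither could change its sign. Equal hybridization controls could not either in the comparisons with day 6. With the mean of all probe sets, Lmnb2 fell below the background, which left 7 genes. Equal reference genes moved the median of all genes by 0.18 for day 28 minus day 6 and 0.16 for day 14 minus day 6. Single-gene values changed sign once in each comparison, under equal reference genes: Hmga2 to 0.07, Lbr to 0.02 and Ezh2 to 0.01. Of the 63 alternative values of single genes in each comparison, at most 26 could change sign, since the others equalled the deposited difference or were only divided by a slope. In the 2 comparisons with day 6, values with equal hybridization controls could not either. That scaling only shifted the negative differences by a further -0.08. The count at 1.5-fold for day 14 minus day 6 was 3 with equal reference genes, a scaling tried at this fold after the data were seen. Adding the shared probe sets of Hmgb1 gave medians of -0.58, -0.68 and -0.09 for day 28 minus day 6, day 14 minus day 6 and day 28 minus day 14. No paired analysis was possible because each time had 1 array. The cause of these shifts was not tested. Signals near the background limit what can be read for Lmnb2 and for the dim probe sets of Cbx5.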

Other observations

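E2f1, a transcription factor gene of the proliferation list, is named here after its values were seen. It was below 0 for day 14 minus day 6, at -0.53, as all 23 markers were, but went against most of them at day 28. Its brightest probe set read 26.05 on day 6, 25.52 on day 14 and 26.38 on day 28, and its 2 other probe sets were also lowest at day 14 and highest at day 28. For day 28 minus day 14 the log2 differences of the 3 probe sets were 0.86, 1.18 and 0.84, whereas 21 of the 23 markers had a difference below 0. The other marker above 0 was Pcna, at 0.06.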
